A study of Mus musculus with 72 samples.

Results

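The proteasome genes of the mouse liver were taken as every gene in the count table whose symbol is Psm followed by a letter from a to g and a digit. The interferon-inducible Psmb8, Psmb9 and Psmb10 and the pseudogenes named with -ps were left aside. This gave 46 genes of 27846, and all 46 were among the 15066 genes tested. They were 8 genes of the alpha ring, 7 of the beta ring, 6 base ATPases, 11 non-ATPase subunits of the regulatory particle, 7 assembly chaperones and 6 activators or inhibitors of the core. The remaining gene, Psmc3ip, meets the name pattern but encodes a meiotic recombination factor and is no proteasome subunit. No row was present for the thymus-specific beta subunit Psmb11.

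The proteasome degrades ubiquitin-tagged proteins. Its core is a barrel of stacked rings: the alpha subunits form the gated ends and the beta subunits the inner rings, where Psmb5 carries the chymotrypsin-like, Psmb6 the caspase-like and Psmb7 the trypsin-like active site. The regulatory particle caps the barrel. Its base of ATPases (Psmc genes) unfolds substrates, and its non-ATPase subunits (most Psmd genes) bind and remove ubiquitin. Dedicated chaperones (Psmg1 to Psmg4, Psmd5, Psmd9, Psmd10) guide assembly, and other caps (Psme1 with Psme2, Psme3, Psme4) can take the place of the regulatory particle. In many cell types the transcription factor Nfe2l1 raises the transcription of the subunit genes together when proteasome activity is short. Liver cells hold large amounts of proteasome.

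The RNA came from whole liver of wild type C57bl6 mice, aged 8 to 16 weeks, which were switched from chow to a high-fat diet (42% of calories) when the control or misalignment paradigm began. Housing was on a cycle of 12 h light and 12 h dark, and the labels do not describe the schedule of misalignment. Control and misaligned mice of both sexes were sampled at clock times 0, 4, 8, 12, 16 and 20 h, with 3 livers per group of 1 sex, treatment and time, which the series' design text calls biological replicates. This makes 24 groups and 72 libraries, or 18 livers each of control females, misaligned females, control males and misaligned males, and all 4 of these sets shared the strain, the diet and the genotype. The question put by the design is whether the liver's response to chronic circadian misalignment differs between the sexes.

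Library totals ran from 11551524 to 12529963 counts. Expression is given as CPM, counts scaled to a common library total after TMM scaling, with scaling factors of 0.836 to 1.17. A gene is called where edgeR's quasi-likelihood test gave a Benjamini-Hochberg adjusted p under 0.05 over all 15066 genes, and every adjusted p below is from that test unless another is named. No library went against its sex label in sex-chromosome genes, and no pair of libraries was identical. The hepatocyte markers Alb, Apoa1, Ttr, Serpina1c, Cps1 and Hnf4a were present in every set, with a summed level between 66545 and 132367 CPM. No gene of the marker lists for 7 cell types and the interferon response had a median count of 0. In whole-liver RNA, fewer cells of a type and less RNA per cell cannot be told apart.

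Transcript levels were high and of one order across the core and the regulatory particle. Per kilobase of transcript, the mean level over the 72 livers ran from 29.5 CPM for the alpha subunit Psma2 to 145 CPM for the beta subunit Psmb6. The other active-site subunits stood at 87.7 CPM per kilobase for Psmb5 and 112 for Psmb7. The assembly chaperones were lower, from 5.88 CPM per kilobase for Psmg4 to 15.6 for Psmg1. Among the caps, Psme1 and Psme2, the paired subunits of an interferon-inducible ring, stood at 74.9 and 75.0 CPM per kilobase, Psme3 at 24.1 and Psme4, a single-chain cap, at 16.0. Psma8, the testis-specific alpha subunit, was close to the detection limit with 1 to 31 counts per library, as was Psmc3ip with 0 to 12. Psme2b is a near-identical copy of Psme2, so its 6.09 CPM are uncertain, since reads of such copies can be split between them.

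The subunit genes varied together from liver to liver. After the mean of each sex and treatment was subtracted, the median Pearson correlation of log2 CPM over the 72 livers was 0.53 for the 465 pairs of the 31 core and regulatory subunits (Psma8 left out), and 26 pairs were negative. Psmd8 had the lowest median correlation with the other subunits, 0.05, followed by Psmd11 with 0.27. Psmb7 had the highest, 0.67. These values are across livers that share libraries and scaling. The mean log2 CPM of the 31 subunits was also correlated at -0.53 with the TMM factor and at 0.64 with the summed level of 15 mitochondrially encoded genes, and the part of either in the shared variation was not tested. Of all other genes with a mean of at least 5 CPM, those most like the subunit mean included Cops6 (r = 0.80), a subunit of the related COP9 signalosome, Copz1 (0.78), a coatomer subunit, Nsfl1c (0.74), a cofactor of the segregase Vcp, and Pomp (0.73), the chaperone that completes the core particle. Nipsnap1, Stoml2, Dbi, Ndufs5 and mt-Cytb followed, down to r = 0.71. Nfe2l1 and its relative Nfe2l2 had correlations of 0.003 and -0.02 with the subunit mean.

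Promoter sequences are shown for 3 members, chosen after their values were seen: Psmd8, the subunit with the widest called sex difference, Psmb5, the active-site subunit with the widest one, and Psmd11, the member with the clearest daily rhythm. Each runs from 250 bases before to 50 after the annotated start (RefSeq, build GRCm38.p6), at chr14:54617946-54618245 on the minus strand for Psmb5, chr7:29180624-29180923 on the minus strand for Psmd8 and chr11:80428365-80428664 on the plus strand for Psmd11. Capitals mark GAANNTTC (heat shock element core) and TGACNNNGC (antioxidant response element core) in Psmb5, and GGGCGG (GC box) in Psmd8 and Psmd11.
Psmb5: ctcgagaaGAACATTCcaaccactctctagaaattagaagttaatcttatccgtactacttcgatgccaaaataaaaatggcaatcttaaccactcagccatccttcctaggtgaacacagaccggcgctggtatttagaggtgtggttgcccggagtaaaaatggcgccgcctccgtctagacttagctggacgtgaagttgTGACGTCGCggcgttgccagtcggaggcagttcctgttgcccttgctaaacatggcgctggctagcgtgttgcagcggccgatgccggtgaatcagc
Psmd8: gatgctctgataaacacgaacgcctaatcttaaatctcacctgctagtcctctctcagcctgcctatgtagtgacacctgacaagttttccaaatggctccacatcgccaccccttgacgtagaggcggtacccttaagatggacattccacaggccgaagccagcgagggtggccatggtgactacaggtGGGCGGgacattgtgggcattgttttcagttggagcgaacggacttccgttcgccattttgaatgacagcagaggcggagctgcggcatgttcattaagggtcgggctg
Psmd11: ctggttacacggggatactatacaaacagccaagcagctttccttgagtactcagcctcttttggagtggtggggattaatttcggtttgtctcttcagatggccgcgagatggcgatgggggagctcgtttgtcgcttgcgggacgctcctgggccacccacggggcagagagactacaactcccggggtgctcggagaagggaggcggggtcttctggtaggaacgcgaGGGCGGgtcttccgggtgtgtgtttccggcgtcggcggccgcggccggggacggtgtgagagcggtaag
A promoter was matched for 25 of the 31 core and regulatory subunits and motifs were searched on both strands. A gene was counted where any of its promoters held the motif. The antioxidant response element core, the type of site bound by Nfe2l1 and Nfe2l2, was present in 4 of the 25 (Psmb5, Psmb6, Psmc6 and Psmd12). This was 16%, against 14.0% of all 27025 genes with a promoter of that length. GGGCGG was present in 15, or 60%, against 38.2%. CCAAT was present in 10, or 40%, against 41.1%. The E-box CACGTG was present in 1, Psma4, or 4%, against 8.09%, and the heat shock core in 1, Psmb5, against 9.04%. No D-box TTATGTAA was in the promoters of the 25 genes, and 1.11% of all genes held one.

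Proteasome genes were higher in male than in female control livers. In controls, 21 of the 46 members differed between the sexes, 19 of them higher in males and 2 lower, beside 32.9% of all genes tested (17% higher, 16% lower). With all livers the share called was thus 45.7%, above the background. The median standard error of this difference was 0.05 for the members and 0.098 for all genes. The part of this precision in the share called was not tested. The direction was one-sided: all 15 called subunits of the core and regulatory particle were higher in males. The median log2 difference (male minus female) was 0.10 over the 46 members and -0.01 over all genes. Most differences were small. Psmd8 (0.75) and the barely detected Psmc3ip (0.69) had the widest of those called, followed by Psmc4 (0.40).

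**Figure D1:**
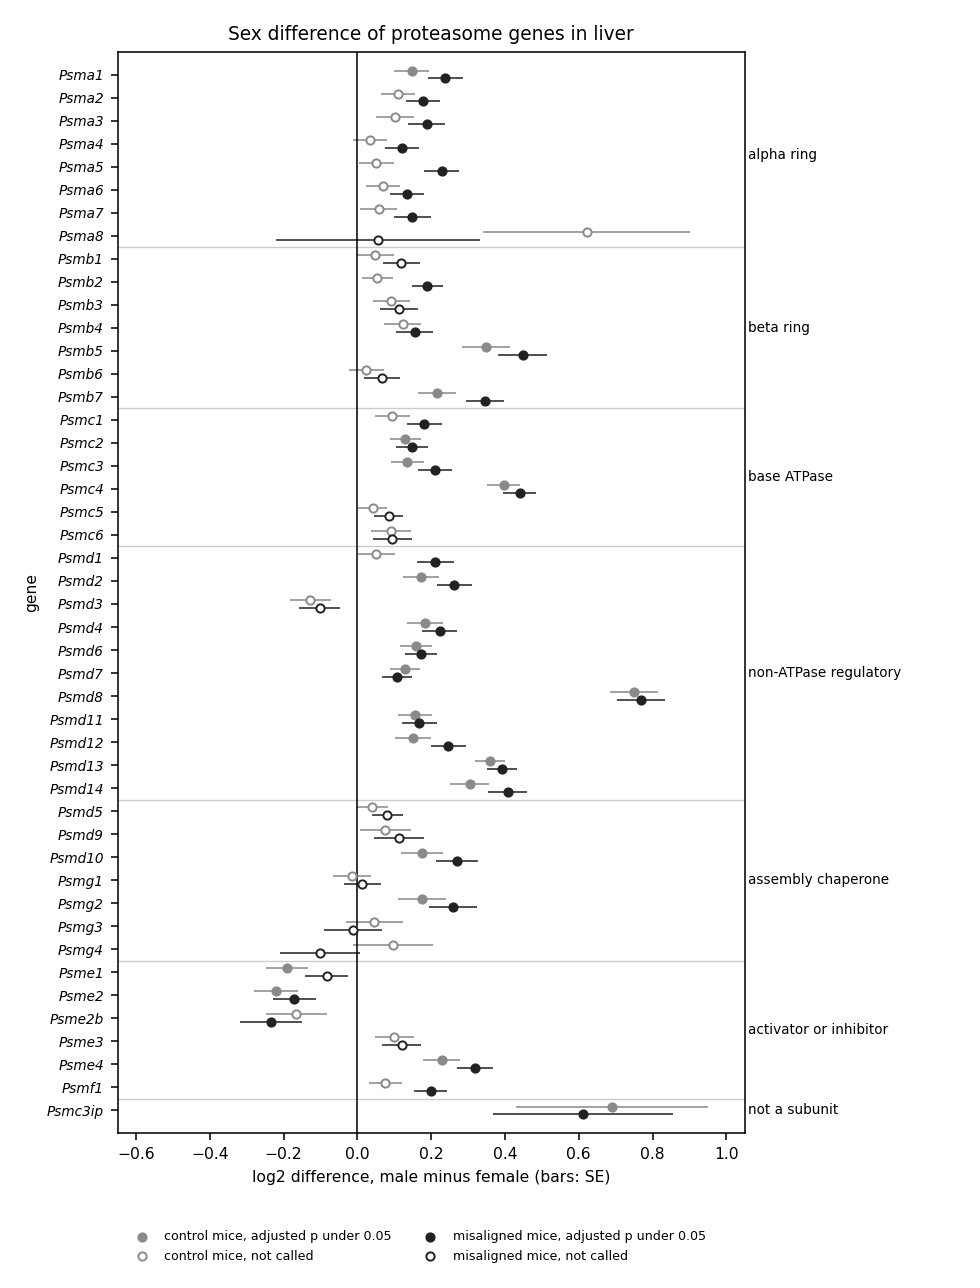
Log2 difference between male and female livers, averaged over 6 clock times, for each of the 46 genes by role, in controls (grey) and misaligned mice (black); bars are standard errors and filled points have an adjusted p under 0.05. Psmd8 lies furthest from 0 among the subunits called, at 0.75 and 0.77, and Psme1 and Psme2 lie on the female side.

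Of the 11 non-ATPase subunits of the regulatory particle, 9 were called in controls. Psmd8, a small subunit of the particle's lid (chromosome 7, 29174188 to 29180701, minus strand, GRCm38), ranged from 96.6 to 113 CPM in control females with a median of 106, and from 121 to 246 with a median of 185 in control males. The lowest male was thus above the highest female. The male to female difference was 0.75 ± 0.07 on the log2 scale (SE), a fold of 1.68 (adjusted p = 6.68e-14, edgeR). Spread also differed: the SD was 5.26 CPM in control females and 32.0 in control males (n = 18 each), and at 4 h the 3 control males read 200, 121 and 191 CPM.

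Psmd13, another lid subunit (chromosome 7, 140881968 to 140898643, plus strand, overlapping Gm15542 on the same strand), ran from 57.2 to 72.7 CPM in control females (median 64.1) and from 73.2 to 91.8 in control males (median 83.6). These ranges did not overlap either. Psmd8 and Psmd13 were the 2 members with separated control ranges, and the share over all genes is not given here. The difference was 0.36 ± 0.04 (adjusted p = 4.27e-10). Psmd14, the deubiquitinase that strips ubiquitin chains from substrates (chromosome 2, 61711694 to 61800376), ran from 39.2 to 67.9 CPM in control females (median 52.7) and from 54.2 to 79.3 in control males (median 64.3), a difference of 0.30 ± 0.05 (adjusted p = 5.34e-06) with overlapping ranges. The others called were smaller: the ubiquitin receptor Psmd4 (0.18), the scaffold Psmd2 (0.17), and Psmd6 (0.16), Psmd11 (0.16), Psmd12 (0.15) and Psmd7 (0.13). Psmd1 (0.05, adjusted p = 0.472) and Psmd3 (-0.13, adjusted p = 0.0701) were not called.

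Of the base ATPases, 3 of 6 were higher in control males. Psmc4 (chromosome 7, 28041707 to 28050101, minus strand) ran from 63.5 to 84.9 CPM in control females (median 78.4) and from 81.0 to 114 in control males (median 104), and 16 of 18 males exceeded the highest female. Its difference was 0.40 ± 0.05 (adjusted p = 5.34e-10). Psmc3 (0.14) and Psmc2 (0.13) were also called, and Psmc1 (0.09), Psmc6 (0.09) and Psmc5 (0.04) were not.

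Among the subunits of the core barrel, calls were few in controls. The chymotrypsin-like subunit Psmb5 (chromosome 14, 54614119 to 54618022, minus strand) ran from 53.2 to 83.6 CPM in control females (median 66.2) and from 55.1 to 115 in control males (median 86.1). The ranges overlapped, with 10 of 18 males above the highest female. The difference was 0.35 ± 0.07 (adjusted p = 2.9e-05). The trypsin-like subunit Psmb7 was higher in males by 0.22 ± 0.05 (adjusted p = 0.00072), while the caspase-like subunit Psmb6 differed by 0.02 ± 0.05 (adjusted p = 0.742), so that the 3 active-site genes were not equally displaced. The other 4 beta subunits had differences of 0.05 to 0.12 and were not called. In the alpha ring, 1 of 8 was called, Psma1 (0.15, adjusted p = 0.0129), and Psma2 to Psma7 differed by 0.03 to 0.11. Psma8, with its few counts, differed by 0.62 ± 0.28 (adjusted p = 0.083).

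The chaperones and caps were mixed. Psmd10 (0.17, adjusted p = 0.0134) and Psmg2 (0.18, adjusted p = 0.0309) were the 2 of 7 chaperones called. Psmg1, Psmg3, Psmg4, Psmd5 and Psmd9 differed by -0.01 to 0.10 and were not called. Psme4, the cap found mainly in the nucleus, was higher in males by 0.23 ± 0.05 (adjusted p = 0.000225), with control medians of 93.1 CPM in females and 109 in males. Psme3, a nuclear ring related to Psme1 and Psme2 (0.10), the inhibitor Psmf1 (0.08) and Psme2b (-0.17) were not called.

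Psme1 and Psme2 were the 2 members lower in males. Psme2 (chromosome 14, 55587441 to 55591113, minus strand) ran from 64.4 to 123 CPM in control females (median 75.2) and from 54.3 to 86.2 in control males (median 67.0). The difference was -0.22 ± 0.06 (adjusted p = 0.00256), and that of its neighbour Psme1 (chromosome 14, 55578123 to 55581529, plus strand) was -0.19 ± 0.06 (adjusted p = 0.00751). Of the subunits of the interferon-induced form of the core, Psmb10 was lower in males by -0.67 ± 0.11 (adjusted p = 2.14e-06) and Psmb8 by -0.34 ± 0.10 (adjusted p = 0.00433), and Psmb9 differed by -0.16 ± 0.12 (adjusted p = 0.348). Of the 12 interferon response markers, 7 were lower in control males and none higher. Of the 6 Kupffer cell and macrophage markers, 4 were lower and none higher. The interferon markers summed to 286 to 1447 CPM in control females (median 338) and 169 to 400 in control males (median 280), and the Kupffer cell markers to 284 to 1548 and 171 to 452. Their part in the Psme1 and Psme2 differences was not tested.

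A single control female liver, replicate 1 at 16 h, was the highest for both sums (1447 and 1548 CPM) and for Psme1 (147 CPM) and Psme2 (123 CPM). The next highest interferon sum was 530 CPM, in replicate 2 of the same group. Without that liver the differences were -0.15 for Psme1 (adjusted p = 0.0239) and -0.19 for Psme2 (adjusted p = 0.00696). The same 21 members were called, beside 31.6% of all genes. The marker calls and the differences of Psmb8 and Psmb10 were not recomputed without that liver.

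**Figure D2:**
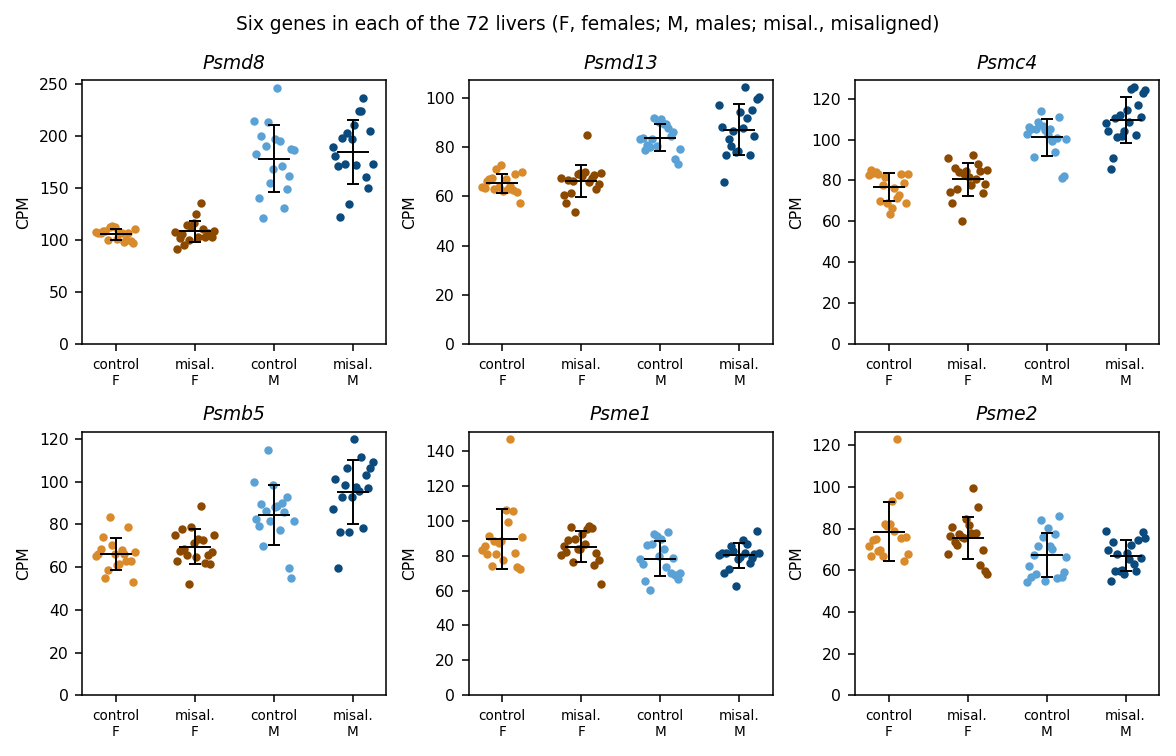
CPM of Psmd8, Psmd13, Psmc4, Psmb5, Psme1 and Psme2 in each of the 72 livers by sex and treatment, with mean and SD (n = 18 per set). For Psmd8 all 18 control males lie above the highest control female at 113 CPM; for Psme1 and Psme2 the highest point is 1 control female, at 147 and 123 CPM.

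The other marker lists also differed between control males and females: 4 of 6 stellate cell and fibroblast markers were higher in males, 3 of 5 endothelial and 2 of 6 hepatocyte markers were lower. Of the 6 red blood cell and platelet markers 4 were lower and 1 higher, of the 4 cholangiocyte markers 1 was higher, and of the 6 markers of T, B and NK cells 1 was lower. Their part in the sex differences of proteasome genes was not tested. Leaving out all libraries of 1 replicate number gave 14 calls without replicate 1, 11 without 2 and 10 without 3, in place of 21. The shares of all genes called were then 22.1%, 24.3% and 23.4%. Without replicate 2 or 3 the share of the members was thus not above that of all genes. Testing without a filter on low counts gave 13, beside 16.0% of all genes.

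Misaligned mice, which are separate livers, gave the sex difference again. There 32 of the 46 members were called, 30 higher in males and 2 lower, beside 37.7% of all genes (19.9% higher, 17.8% lower). Of the 21 called in controls, 20 were called in misaligned mice as well, all in the same direction (95.2% of the 21 and 62.5% of the 32), and 43 of the 46 members had the same sign in both. The matching overlap over all genes is not given here, so this agreement is not shown to be particular to the members. Psmd8 differed by 0.77 ± 0.07 (adjusted p = 2.26e-14), with 91.6 to 136 CPM in misaligned females (median 107) and 122 to 236 in misaligned males (median 185). The ranges met here, with 16 of 18 males above the highest female. Psmc4 differed by 0.44 ± 0.05 (adjusted p = 1.75e-11), Psmb5 by 0.45 ± 0.07 (adjusted p = 1.72e-07) and Psmd14 by 0.41 ± 0.05 (adjusted p = 5.95e-09). No member had separated ranges in misaligned mice, and the share over all genes is not given here either. Leaving out the livers of 1 replicate number gave 18 calls without replicate 1, 23 without 2 and 29 without 3. The shares of all genes called were then 27.4%, 24.1% and 29.3%.

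The cell type markers differed between the sexes here too. Lower in misaligned males were 3 of 6 hepatocyte, 3 of 5 endothelial, 2 of 6 Kupffer cell and macrophage, 4 of 12 interferon response and 1 of 4 cholangiocyte markers, with none of these lists holding a higher one. Of the 6 stellate cell and fibroblast markers 2 were higher and 1 lower, of the red blood cell and platelet markers 1 was higher, and none of the T, B and NK cell markers was called. Their part in the sex differences of these mice was not tested.

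The count of called alpha subunits was 7 of 8 in misaligned mice, with Psma1 at 0.24 and Psma5 at 0.23. The beta ring had 4 of 7, the base 4 of 6, the non-ATPase subunits 10 of 11 and the chaperones 2 of 7. Of the caps and inhibitors, Psme4 (0.32) and Psmf1 (0.20) were higher in males. Psme2 was again lower (-0.17 ± 0.06, adjusted p = 0.0175), as was its copy Psme2b, and Psme1 was not called (-0.08 ± 0.06, adjusted p = 0.261). Whether the sex difference itself differed between treatments was tested directly: edgeR called 0 of the 46 members, DESeq2 0 and limma-voom 0, with 3, 4 and 3 members at an unadjusted p under 0.05, beside 0% of all genes called and 5.7% at that p. The larger count in misaligned mice is therefore not a tested difference between treatments.

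The wider pathway held 33 tested genes, from ubiquitin and its activating enzymes to shuttles, proteasome-bound enzymes and regulators. In controls 18 of the 33 were called, 13 higher in males and 5 lower, beside the 32.9% of all genes given above, and in misaligned mice 20, 13 higher and 7 lower, beside 37.7%. Higher in control males were Pomp (0.19, adjusted p = 0.00477), Usp14, a deubiquitinase bound to the proteasome (0.19, adjusted p = 0.003), Ube3c, a ubiquitin ligase bound to it (0.24, adjusted p = 0.00131), Vcp, which extracts ubiquitinated proteins from complexes and membranes (0.17, adjusted p = 0.00171), and the shuttle factor Rad23b (0.20, adjusted p = 0.000492). The arsenite-inducible Zfand2a had the widest displacement of the higher genes (0.64, adjusted p = 1.08e-09). The regulators went in opposite directions: Nfe2l1 was lower in control males by -0.23 ± 0.05 (adjusted p = 6.03e-05), and Nfe2l2 was higher by 0.26 ± 0.07 (adjusted p = 0.0042). Ubqln4, a shuttle factor, was lower (-0.37, adjusted p = 1.45e-06), as was Bag6, a chaperone for proteins bound for degradation (-0.14, adjusted p = 0.045).

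Intron counts, which come largely from unspliced transcripts, were tested separately for the 42 members among 10241 genes with enough of them. In controls 11 members were called, all higher in males, beside 16.6% of genes. Psmd8 introns held a median of 34.5 counts in control females and 63 in control males, a difference of 0.79 (adjusted p = 3.53e-06), and in misaligned mice 0.69. Psmd14 (0.53), Psmd13 (0.44), Psmc3 (0.36), Psme4 (0.32) and Psmb7 (0.30) were among the others. In misaligned mice 9 members were called, beside 19.2% of genes, and of these Psmd8, Psmd13, Psmd14, Psmb7, Psme4 and Psma5 were called in controls too. Poly(A) selection leaves few intron reads, so these counts are shallow.

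Misalignment did not move the mean level of any member past the threshold. In females edgeR called 0 of 46, with 0 at an unadjusted p under 0.05 (beside 0.00664% of all genes called and 6.68% at that unadjusted p), and DESeq2 and limma-voom gave the same counts for the members. The median log2 difference was 0.01. In males edgeR called 0 of 46, beside 0% of all genes, with a lowest adjusted p of 0.743. There were 9 members at an unadjusted p under 0.05, all with a positive difference, beside 6.19% of all genes at that p and 3.41% at that p and positive. DESeq2 gave 0 called and 10 at that p, limma-voom 0 and 8. The 9 were Psmc5 (0.12), Psmc3 (0.13), Psmc4 (0.11), Psmb5 (0.17), Psmb2 (0.11), Psmb7 (0.10), Psma5 (0.10), Psme4 (0.12) and Psmf1 (0.10).

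The median difference in males was 0.07 over the members and 0.01 over all genes, and 39 of the 46 were positive. With scaling by total counts, chosen after seeing the data, the medians were 0.02 and -0.04 and 1 member had an unadjusted p under 0.05. Without the misaligned male liver of 0 h, replicate 3, described below, 17 members had one. Without all livers of replicate 1, 1 member had one and the median over the members was 0.03. The sex difference of the misalignment effect called 0 members by edgeR, DESeq2 and limma-voom, as given above.

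One subunit had a clear daily rhythm. Psmd11, a lid subunit that holds the regulatory particle to the core (chromosome 11, 80428615 to 80473248, plus strand), read 150, 132 and 148 CPM in the 3 control females at 0 h and 77.6, 88.1 and 94.0 at 12 h. The livers of these 2 times did not overlap. At 4 h the 3 livers read 130, 135 and 103 CPM, at 8 h 92.4, 88.9 and 88.4, at 16 h 96.4, 118 and 119, and at 20 h 131, 144 and 141. A curve of 24 h fitted to the 18 livers had an amplitude (mean to peak, log2) of 0.39 ± 0.05 and peaked at 22.6 ± 0.48 h, a ratio of peak to trough of 1.73 (adjusted p = 9.86e-08).

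The rhythm of Psmd11 was also called in control males and in misaligned females. In control males the call was lost without the livers of replicate 3 (adjusted p = 0.0749), while in females of both treatments it was kept without the livers of any 1 replicate number. In control males the 3 livers at 0 h read 143, 169 and 160 CPM and those at 8 h 107, 101 and 99.1, where the curve peaked at 21.6 ± 0.72 h with amplitude 0.26 ± 0.05 (adjusted p = 0.000693). In misaligned females the livers at 20 h read 128, 139 and 147 CPM and those at 8 h 84.6, 91.0 and 103, where the curve peaked at 19.7 ± 0.62 h with amplitude 0.30 ± 0.05 (adjusted p = 4.87e-05). The 18 misaligned males read 110 to 146 CPM with no group apart, an amplitude of 0.06 ± 0.05, and Psmd11 was not called. The change of the rhythm with misalignment was called in males (adjusted p = 0.00421) and not in females. The call in males was lost without the livers of any 1 replicate number (adjusted p = 0.0556 without replicate 1, 0.0509 without 2 and 0.14 without 3), and the test of the sex difference of that change called no member.

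**Figure D3:**
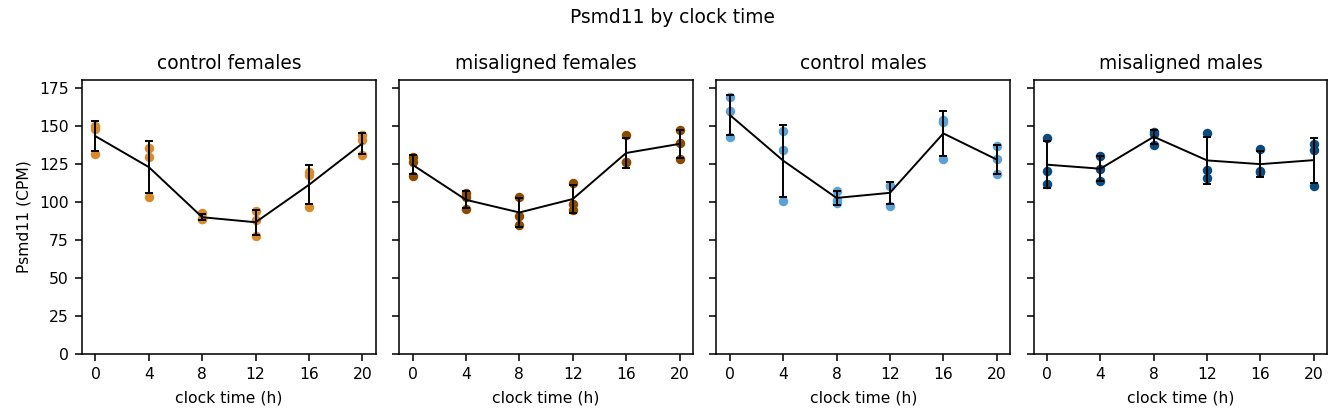
Psmd11 in CPM at each clock time for the 4 sets; points are single livers, the line joins the group means and bars are SD (n = 3 per time). Means run from 143 CPM at 0 h to 86.5 at 12 h in control females, and from 122 to 143 in misaligned males.

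Other members had weak daily curves. In control females 6 of 46 were called rhythmic, beside 12% of all genes: Psmd11, Psmd1 (adjusted p = 0.00983), Psmd14 (0.0192), Psme2 (0.0295), Psmc1 (0.0371) and Psmc2 (0.0434). Psmd1, Psmd14 and Psmc2 peaked between 0 and 2 h with amplitudes of 0.20, 0.21 and 0.15, and Psmc1 peaked at 3.96 h. Psme2 peaked at 13.8 h, and without the control female liver of 16 h described above it was not called (adjusted p = 0.125). Then 3 of the 6 members were still called, beside 10.8% of all genes. Without the livers of replicate 1, or those of replicate 2, 1 of the 6 was, beside 5.34% and 5.3% of all genes. In control males 3 were called, beside 10.8%: Psmd11, Psmf1, an inhibitor of the core (peak at 8.55 h, adjusted p = 0.0226), and Psmc3ip. Without the livers of replicate 3, 11 members were called in control males, beside 8.98% of all genes, and none of these 3 was among them. In misaligned females 2 were called, beside 7.69%: Psmd11 and Psmd7, a partner of Psmd14 (peak at 18.2 h, adjusted p = 0.0258).

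In misaligned males 0 members were called rhythmic by edgeR, DESeq2 or limma-voom, with 6, 7 and 5 at an unadjusted p under 0.05, beside 0.00664% of all genes called and 7.85% at that p. The median amplitude over the members was 0.11 in control females, 0.08 in misaligned females, 0.10 in control males and 0.09 in misaligned males, beside 0.17, 0.16, 0.17 and 0.13 over all genes. The median amplitude of the proteasome genes was thus the lower one in all 4 sets. Their median standard error of the sex difference in controls was also lower (0.05, and 0.098 over all genes). The part of precision in the fitted amplitudes was not tested.

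The fitted peaks are given by role as a description, since most of the curves were not called. No member was called rhythmic in misaligned males, and no alpha or beta subunit in any of the 4 sets. In control females the mean peak was 1.20 h for the non-ATPase subunits, 2.08 h for the base ATPases, 4.57 h for Psma1 to Psma7 and 7.53 h for the beta ring. In control males the 4 means were 2.33, 5.03, 6.05 and 9.31 h, and in misaligned males 13.6, 14.6, 16.4 and 17.6 h. In misaligned females they were 19.3, 19.1, 7.40 and 9.50 h, in another order. Peaks between 12 and 24 h were found for 41 of the 46 members in misaligned males, 12 in control females and 10 in control males. Over all 15066 genes the counts were 7565, 7960 and 7791. The concentration of peaks (1 when all coincide, 0 when spread evenly) was 0.740 for the members in misaligned males and 0.0120 for all genes. These means are over genes that vary together, and their order by role was not tested.

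**Figure D4:**
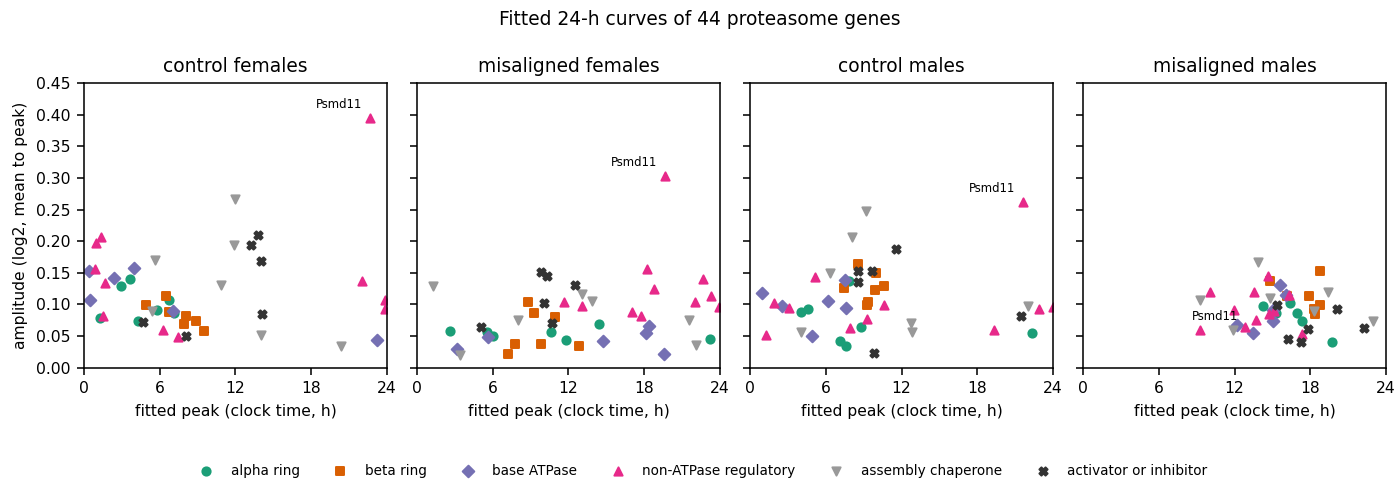
Amplitude (log2, mean to peak) against the peak of the fitted 24 h curve for 44 genes (Psma8 and Psmc3ip left out) in the 4 sets, by role. Control peaks lie mostly before 12 h, with the beta ring at a mean of 7.53 h in females and 9.31 h in males; misaligned male peaks lie mostly after 12 h, and Psmd11 has the highest amplitude in the other 3 sets.

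The change of the rhythm with misalignment was called for 6 members in males, beside 9.23% of all genes: Psmd11, Psmb4 (adjusted p = 0.0187), Psmc3 (0.0318), Psmd9 (0.0443), Psmb2 (0.0485) and Psmc3ip (0.0494). Without the livers of replicate 1, or those of replicate 2, 0 of 46 were called, beside 0.9% and 2.92% of all genes. Counting the 6, 22 of 46 had an unadjusted p under 0.05, beside 24.1% of all genes. Psmb4, a beta subunit (chromosome 3, 94884093 to 94886961, minus strand), had a fitted peak at 9.96 ± 1.26 h in control males and at 18.8 ± 1.24 h in misaligned males. The amplitude was 0.15 in both, and on clock time Psmb4 was not called rhythmic in either set. Control males read 146, 144 and 118 CPM at 8 h and 100.2, 94.5 and 124 at 20 h. Misaligned males read 118, 116 and 109 at 8 h and 131, 153 and 168 at 20 h. The ranges of the 2 treatments, of 3 livers each, did not overlap at 20 h.

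In females edgeR called 0 members for the change, DESeq2 1 and limma-voom 0, beside 0.192% of all genes, and 3 had an unadjusted p under 0.05 in edgeR, beside 8.2%. The sex difference of the change called 0 members by each tool, with 4, 4 and 3 at that p, beside 1.73% of all genes called and 14.1% at that p. The sex difference of the control rhythms called 0 by each tool, with 1 at that p in each, beside 0% and 4.91%.

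The scaling of libraries moved with these values. In control males the mean log2 CPM of the 31 subunits was 6.73 at 0 h and 6.46 at 20 h, where the mean TMM factor was 1.11, the highest of the 24 groups. Within sets the correlation of the subunit mean with the TMM factor was -0.09 in control females, -0.25 in misaligned females, -0.80 in control males and -0.58 in misaligned males (18 livers each, a description). With scaling by total counts 14 members were called rhythmic in control females, 6 in control males and 19 for the change in males, against 6, 3 and 6. Of all genes 11.9%, 10.4% and 9.5% were called, against 12%, 10.8% and 9.23%. Psmd11 was called in the same 3 sets under total counts (adjusted p of at most 4e-06). For the other members the part of scaling in the rhythms was not tested.

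Clock genes of the misaligned males were not aligned with the stated clock time, so each liver was also placed by its molecular time, read from 14 core clock genes against the control curve of the same sex. Misaligned females read 2.29 h ahead of the stated time on average. Misaligned males had a mean offset of -7.34 h with a concentration of 0.516, and 3 of 18 were within 4 h of the stated time. Ordered by molecular time, Psmd11 was called in control females (amplitude 0.40), control males (0.29, peak 22.3 h, adjusted p = 2.17e-05) and misaligned females (0.30, peak 21.6 h, adjusted p = 3.79e-06), and its amplitude in misaligned males was 0.08 ± 0.06, not called. The counts of members called were 7, 4 and 2 in those 3 sets, beside 13.7%, 12.4% and 10.7% of all genes. The 4 of control males were 13 with scaling by total counts, 1 without replicate 1 or without replicate 2, and 8 without replicate 3. The shares of all genes called were then 11.8%, 4.16%, 4.65% and 7.55%.

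In misaligned males 6 members were called on molecular time, beside 11.5% of all genes: Psmb4 (adjusted p = 0.000969), Psma7 (0.0111), Psmd13 (0.0133), Psmb2 (0.0387), Psmb1 (0.0409) and Psmc3 (0.0473). At an unadjusted p under 0.05 there were 15, beside 28.1%. Their peaks lay between 10.3 and 11.3 h, and 33 of the 46 members peaked between 8 and 12 h, beside 2978 of all 15066 genes. For Psmb4 the 5 misaligned males at 0 to 6 h of molecular time read 109 to 123 CPM, the 5 at 6 to 12 h 120.0 to 157, the 7 at 12 to 18 h 128 to 168, and the only 1 at 18 to 24 h read 97.3. This liver, 0 h replicate 3, was the lowest misaligned male for all 6 genes. Without it Psmb4 was the only member still called (adjusted p = 0.0157, amplitude 0.25, peak 11.6 h), 24 of 46 members peaked between 8 and 12 h, and the concentration of members' peaks was 0.540 in place of 0.783. Without all livers of replicate 3, 0 members were called. Of all genes, 8.52% were called without the 1 liver and 2.21% without replicate 3.

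The change of the rhythm with misalignment on molecular time called 0 members in males by edgeR, DESeq2 and limma-voom, with 6, 7 and 6 at an unadjusted p under 0.05, beside 0% of all genes called and 4.7% at that p. In control males Psmb4 read 117 to 132 CPM at 0 to 6 h, 118 to 146 at 6 to 12 h, 119 to 147 at 12 to 18 h and 94.5 to 124 at 18 to 24 h, with a fitted peak of 9.47 h. The window of 18 to 24 h was the lowest in both, with 4 control livers and 1 misaligned liver.

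**Figure D5:**
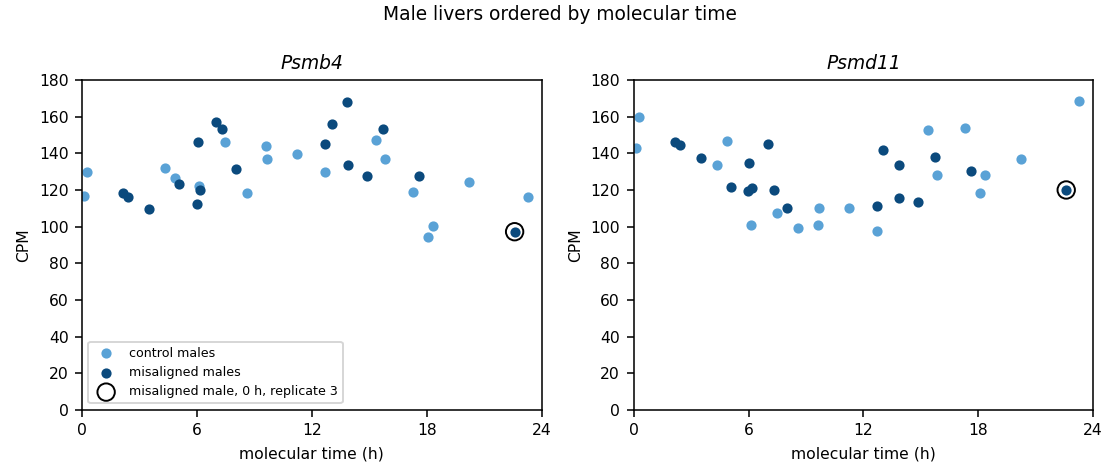
Psmb4 and Psmd11 in CPM against the molecular time of each male liver (18 control and 18 misaligned); the ring marks the misaligned male of 0 h, replicate 3. For Psmb4 that liver is the lowest misaligned male at 97.3 CPM and the only one between 18 and 24 h; for Psmd11 the misaligned males stay between 110 and 146 CPM.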

How the data were processed

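The authors' deposited files hold whole-number read counts per gene, exon and intron, sense and antisense; reads were aligned with STAR 2.6.0c to GRCm38, per the submitters' processing notes, and libraries were stranded and poly(A) selected with paired reads of 150 bp, per the labels' protocols. The sense gene counts restricted to unambiguous reads were used, with sense introns and antisense counts set beside them and the counts that include ambiguous reads as an alternative. Other files were not used here. The labels in each column name (sex, treatment, time, replicate) gave its sample, and 0 columns were unmatched.

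Genes passing edgeR's filterByExpr over 24 groups were scaled by TMM and fitted with edgeR 4.0.16 in R 4.3.3 (robust quasi-likelihood). Mean effects were contrasts of 24 group means averaged over clock times (48 residual degrees of freedom), and sex differences are male minus female. Rhythms were cosine curves of 24 h fitted separately to the 4 sets (12 coefficients, 60 residual degrees of freedom). P-values were adjusted by Benjamini and Hochberg over all genes tested. Log2 CPM used a prior count of 2. Molecular time was the angle that best fitted a liver's clock genes to the control curve of its sex, a control liver being read against a curve fitted without it. Standard errors of amplitude and peak were scaled to the F test. Means of 3 livers per group limit precision: the median standard error of a member's sex difference was 0.05. The test was checked on simulated counts.

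The members and gene lists were chosen with earlier results of these data known. All members could be named. Values per liver or group were to be given for up to 4 called members with the smallest p per test and for a set panel; genes named outside that were chosen after their values were seen. The sex difference in misaligned mice, molecular time in the other sets and intron tests were added after the other designs were set. A first run used edgeR's older dispersion estimate; the newer was adopted to match the earlier processing of these data, after member counts were seen with both. Same-numbered livers did not deviate together in most pairs: 12 of 36 pairs correlated above 0.1 (median -0.002, range -0.58 to 0.62). Replicate numbers were therefore not treated as pairs. Alternatives were DESeq2 1.42.0 and its size factors, limma-voom (limma 3.58.1), total counts, no filter, ambiguous counts included, a replicate block, a test across clock times, other clock genes, and leaving out replicates. A gene among those most like the subunit mean is not reported here. Positions are from GENCODE on GRCm38. Figures used Python 3.11.15 and matplotlib 3.10.9.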

Additional observations from a re-analysis of the deposited data

How the results depend on the processing

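Counts of members called were recomputed under each alternative, and percentages in brackets are the shares of all genes called. Total counts, the older edgeR dispersion estimate and leaving out single livers were chosen after seeing the data. The cause of a moved count was not tested unless stated. Mean effects of misalignment and their sex difference stayed at 0 called in every alternative run (at most 0.0457%). So did the rhythm in misaligned males (at most 0.291%) and the sex difference of control rhythms (at most 0.00664%). For the sex difference in controls (21 called, 32.9%), no low count filter gave 13 (16.0%). Leaving out replicates or single livers gave 10 to 22 (22.1% to 33.2%). For the sex difference in misaligned mice (32, 37.7%), leaving out gave 18 to 36 (24.1% to 37.8%). For the rhythm in control females (6, 12%), total counts gave 14 (11.9%), no filter 2 (5.01%) and a test across clock times 1 (6.84%). Leaving out replicates or single livers gave 1 to 7 (5.3% to 12.5%). For the rhythm in control males (3, 10.8%), total counts gave 6 (10.4%) and DESeq2 5 (11.5%). Leaving out gave 1 to 11 (2.56% to 11.2%), with none of the 3 among the 11. For the rhythm in misaligned females (2, 7.69%), no filter (3.0%) and a test across clock times (3.64%) each gave 1. Leaving out gave 1 to 2 (2.66% to 8.09%). For the change of the rhythm in females (0, 0.192%), total counts (0.285%) and DESeq2 (0.564%) gave 1 each. For the change in males (6, 9.23%), total counts gave 19 (9.5%), no filter 2 (3.4%), and leaving out 0 to 10. The count was 0 without replicate 1 (0.9%) or 2 (2.92%). Without the misaligned male of 0 h, replicate 3, it was 10 (13.3%). For the sex difference of the change (0, 1.73%), total counts gave 1 (1.68%). For molecular time in control males (4, 12.4%), total counts gave 13 (11.8%), no filter 2 (5.22%), and leaving out 1 to 8 (4.16% to 12.5%). For molecular time in misaligned males (6, 11.5%), total counts gave 17 (16.8%) and no filter 3 (4.4%). Leaving out gave 0 to 7 (2.21% to 11.4%), and without the 1 liver at 18 to 24 h the count was 1 (8.52%). With a replicate block the count for the sex difference in controls was 21 (32.7%) and for the change in males 4 (9.12%). For molecular time in misaligned males it was 6 (11.5%), and no other count left its band. The single genes called gave 1066 values under alternatives: 884 stayed called, 182 lost the call and 0 reversed. A reversal could be counted only for the sex differences, since the rhythm tests have no sign, and moved peaks were not counted. Depth limits Psmg4 (19 to 58 counts per library), Psma8 (1 to 31) and Psmc3ip (0 to 12).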

Other observations

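Antisense reads to the proteasome genes were few. Of the 43 members with a row in the antisense table, Psmg3 had the highest median, 9 counts per library beside 144 sense counts, and no member had all misaligned livers above all control livers of the same sex. Among the wider pathway genes, 6 of 33 were called rhythmic in control females, 4 in control males, 2 in misaligned females and 0 in misaligned males, beside 12%, 10.8%, 7.69% and 0.00664% of all genes. For the change of the rhythm in males 5 of the 33 were called, beside 9.23%.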
